A study of Mus musculus with 8 samples.

Results

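Voltage-gated calcium channels are built around an alpha-1 subunit that forms the pore, and 8 mouse genes for alpha-1 subunits are described here: Cacna1a, Cacna1b, Cacna1c, Cacna1d and Cacna1e, whose channels open at high voltage, and Cacna1g, Cacna1h and Cacna1i, whose T-type channels open near the resting potential. They were chosen by gene symbol, each matched 1 of the 54532 genes in the deposited count table, and all 8 passed the low-count filter that left 16062 genes for testing. The series compared bulk RNA from brain, described as whole, of male mice, 3 months old, labelled Nsun5-KO or wild type (WT) and taken from the same litter under pentobarbital (50 mg/kg). Nsun5 encodes a methyltransferase that acts on ribosomal RNA of the large subunit, and its loss is studied for effects on myelin and on sleep. The protocol names 5 mice per genotype, and 4 libraries labelled Nsun5-KO and 4 WT libraries were analysed. How the Nsun5 allele was made is not given in the sources used here.

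Calcium entering through these channels drives transmitter release at nerve terminals, shapes firing, and starts signalling to the nucleus. P/Q-type (Cacna1a) and N-type (Cacna1b) channels sit mainly at presynaptic terminals, R-type channels (Cacna1e) also contribute to release and to bursting, and L-type channels (Cacna1c and Cacna1d) act mainly on cell bodies and dendrites, where they couple activity to gene expression and pacemaking. T-type channels give the low-threshold spikes on which thalamic burst firing and the oscillations of non-REM sleep depend. Cacna1g is the form of thalamic relay neurons and Cacna1i that of the thalamic reticular nucleus, a source of sleep spindles. High-voltage alpha-1 subunits assemble with an intracellular beta subunit and an alpha-2-delta subunit, whereas T-type subunits can work without them.

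The classes differ at the pore itself, and the coding sequence around it is shown to make the grouping visible. Each alpha-1 subunit has repeats numbered I to IV, and an acidic residue in the pore loop of each repeat selects for calcium. The coding strand is given 5′ to 3′ for 30 bases around that codon in repeat III, from GENCODE M21 transcripts with coordinates in GRCm38 (mm10), and capitals mark the codon of the acidic residue.
Cacna1a: gtgtccacaggaGAGggctggccacaggtc, chr8:84581326-84583562, plus strand
Cacna1b: gtgtccacgggaGAGgggtggcccatggtg, chr2:24650625-24651106, minus strand
Cacna1c: gtctccaccttcGAAgggtggccagagctg, chr6:118654452-118656138, minus strand
Cacna1d: gtctcaacttttGAGggctggcccgcgttg, chr14:30099240-30100722, minus strand
Cacna1e: gtctctacagggGAAggatggcctcaggtt, chr1:154443999-154444897, minus strand
Cacna1g: ctggcctccaagGATggctgggttgacatc, chr11:94426456-94426485, minus strand
Cacna1h: ctgtcatccaagGATggctgggtaaacatc, chr17:25383493-25383522, minus strand
Cacna1i: ttggcctccaagGATggctgggtgaacatc, chr15:80376795-80376824, plus strand
The capital codon is GAA or GAG (glutamate) in all 5 high-voltage genes and GAT (aspartate) in all 3 T-type genes. In the high-voltage genes this stretch spans a junction between 2 exons, so the coordinates include the intron, and in the T-type genes it lies within a single exon. The same stretch of repeat IV follows, and there it lay within a single exon in all 8 genes.
Cacna1a: agcgccacaggaGAAgcgtggcacaacatc, chr8:84611599-84611628, plus strand, exon 35 of 47
Cacna1b: agtgccactgggGAGgcctggcatgagatc, chr2:24635210-24635239, minus strand, exon 36 of 47
Cacna1c: tgtgccaccggaGAGgcctggcaggacatc, chr6:118614047-118614076, minus strand, exon 36 of 48
Cacna1d: tgtgcaacagggGAAgcctggcaggagatc, chr14:30075941-30075970, minus strand, exon 36 of 49
Cacna1e: agtgccacggggGAGgcttggcaggagatt, chr1:154425972-154426001, minus strand, exon 37 of 47
Cacna1g: gtctccactggtGACaactggaatggtatt, chr11:94416412-94416441, minus strand, exon 32 of 38
Cacna1h: gtgtccactgggGACaactggaatgggatc, chr17:25377768-25377797, minus strand, exon 31 of 35
Cacna1i: gtctccacaggcGATaactggaatgggatt, chr15:80388485-80388514, plus strand, exon 31 of 37
Repeat IV divides the genes in the same way, with GAA or GAG in the high-voltage genes and GAC or GAT in the T-type genes. The stretches were found by codon patterns read in frame on the coding strand, ACNGGNGANNNNTGGNNNNNNATNATG for repeat IV and the corresponding pore-loop pattern for repeat III, both of which leave the last base of the acidic codon free. The repeat III pattern occurs in 0.12% of 21720 mouse coding sequences (in the T-type genes also in repeat I, so the later match was taken), and the repeat IV pattern in 0.046%. A pattern for the alpha-interaction domain, the loop to which the beta subunit binds, was found in all 5 high-voltage genes and in 0 of 3 T-type genes (0.0322% of all coding sequences, Cacna1f and Cacna1s being the only other genes with it).

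The 8 libraries held 15642086 to 17829523 counts, and counting error was small for the alpha-1 genes, whose counts ran from 513 to 3853 in a library. Nsun5 RNA did not separate the labels, with 83 to 124 counts in the libraries labelled Nsun5-KO and 82 to 109 in WT libraries (log2 fold change 0.13, SE 0.15, edgeR adjusted p = 0.817), so every direction below is that of the labels. WT replicates 1 and 2 stood apart from the other 6 libraries on the first principal component (-29.7 and -36.0), which held 25.7% of the variance. WT replicates 3 and 4 were at 2.49 and 1.75, and the libraries labelled Nsun5-KO at 5.26 to 23.8, above every WT library. In WT replicates 1 and 2, 7.27% and 7.68% of the counts were mitochondrial, against 5.52% to 6.23% in the others. Neuronal genes were abundant, but Gabra6 and Pcp2, defining genes of cerebellar granule and Purkinje cells, had 0 to 30 and 0 to 19 counts in a library, near absent for RNA described as from the whole brain. In bulk tissue, fewer cells of a type and less RNA per cell cannot be told apart.

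No alpha-1 gene changed past the test. The edgeR quasi-likelihood test called 0 of 8 at an adjusted p below 0.05, where it called 0 of 16062 genes in all (0%). DESeq2 called 0 of 8 as well, against 0.585% of all genes (0.324% higher and 0.262% lower). By edgeR p under 0.05 before adjustment, 2 of 8 were higher in the libraries labelled Nsun5-KO (Cacna1a and Cacna1g) and 0 lower, beside 5.3% of all tested genes higher and 5.05% lower (10.4% in either direction). Cacna1b was the only member whose groups did not overlap, beside 5.7% of all tested genes (2.99% higher and 2.71% lower). The fold changes lay between -0.20 (Cacna1h) and 0.33 (Cacna1i) on the log2 scale, and the plot of each gene's CPM (counts scaled to library size) by library shows how far the groups overlap.

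**Figure D1:**
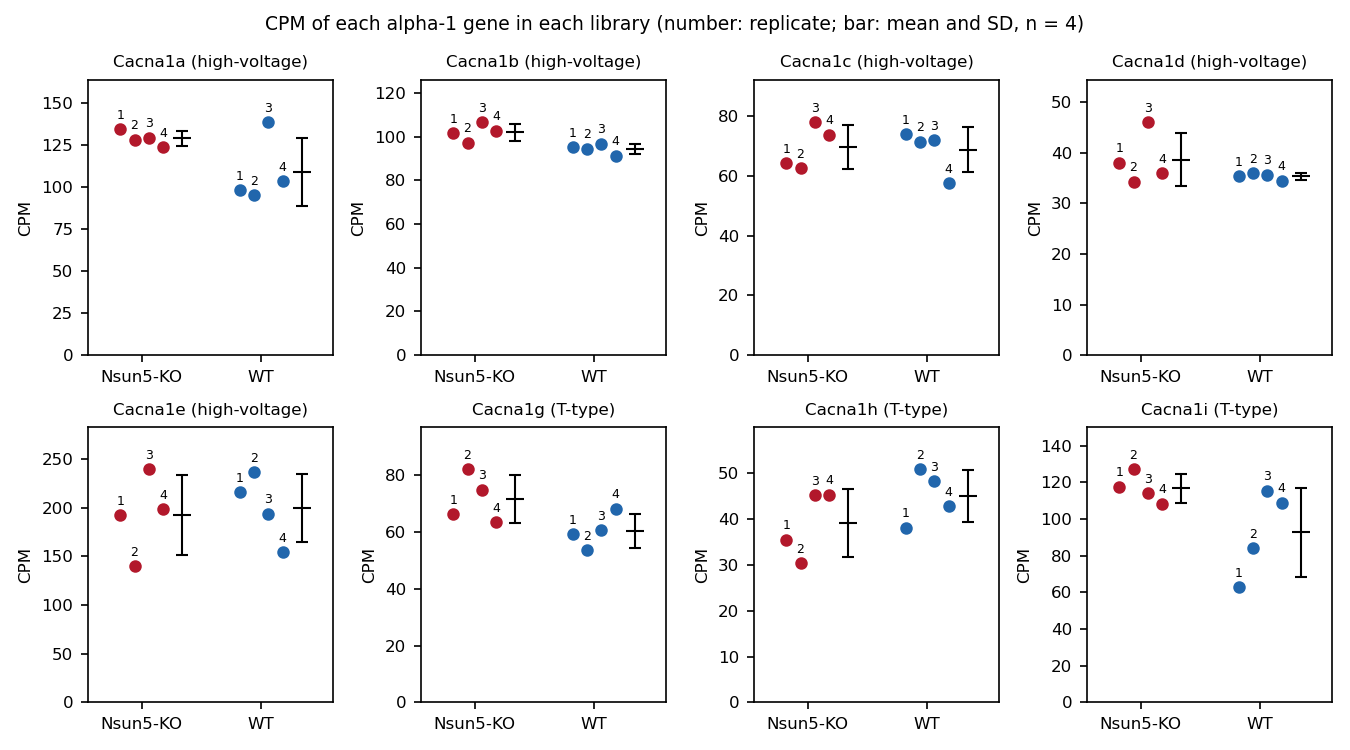
Normalised expression (CPM, y axis from 0) of the 8 alpha-1 genes in the 4 libraries labelled Nsun5-KO (red, left) and the 4 WT libraries (blue, right), with the replicate number at each point and the mean ± SD as a bar. The groups overlap in all genes but Cacna1b, and the low WT values of Cacna1i are WT replicates 1 and 2 (62.7 and 83.9 CPM).

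Among the presynaptic channels, Cacna1a, the P/Q-type gene (ENSMUSG00000034656, chr8:84388440-84640246, plus strand), had 134.6, 128.3, 129.4 and 123.9 CPM in replicates 1 to 4 labelled Nsun5-KO, against 98.2, 95.1, 138.8 and 103.5 CPM in WT replicates 1 to 4. The libraries labelled Nsun5-KO lay close together and above 3 of the 4 WT libraries, while WT replicate 3 was the highest of all 8. The mean was 129 ± 4.43 CPM in libraries labelled Nsun5-KO and 109 ± 20.2 CPM in WT (SD over 4 libraries each). The log2 fold change was 0.24 with a 95% interval of 0.01 to 0.48 (SE 0.11), edgeR gave an adjusted p of 0.465, and the exact permutation test gave p = 0.143. Without WT replicate 3 the log2 fold change was 0.38 (edgeR adjusted p = 0.114, the smallest of any member under any alternative), and without WT replicates 1 and 2 it was 0.089.

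Cacna1b (ENSMUSG00000004113, chr2:24603887-24763152, minus strand), the N-type gene whose channel is blocked by omega-conotoxin, had 101.4, 97.1, 106.7 and 102.7 CPM in libraries labelled Nsun5-KO and 95.1, 94.4, 96.7 and 91.2 CPM in WT libraries. The lowest library labelled Nsun5-KO, replicate 2, lay just above the highest WT library, replicate 3. This was the steadiest of the 8 genes, its highest library holding 1.17 times its lowest, and the difference between the means was small (102 ± 3.94 CPM in libraries labelled Nsun5-KO against 94.4 ± 2.31 CPM in WT). The log2 fold change was 0.11 (SE 0.061), its 95% interval ran from -0.02 to 0.24, and edgeR gave an adjusted p of 0.553. The exact permutation p was 0.0286, the smallest that 4 against 4 can give.

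Cacna1e, the R-type gene (ENSMUSG00000004110, chr1:154390731-154884501, minus strand), had the highest counts of the family and varied the most among the high-voltage genes. It had 192.2, 139.7, 239.6 and 198.2 CPM in libraries labelled Nsun5-KO, against 215.7, 236.2, 193.8 and 154.1 CPM in WT libraries. The lowest and the highest library both carried the label Nsun5-KO (replicates 2 and 3), and the groups overlapped over most of their range (log2 fold change -0.06 with a 95% interval of -0.45 to 0.33; SE 0.17; edgeR adjusted p = 0.939). Its sign turned to 0.067 without replicate 2 labelled Nsun5-KO, to 0.03 without WT replicate 2 and to 0.14 without WT replicates 1 and 2.

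Both L-type genes had intervals on either side of 0. Cacna1c (ENSMUSG00000051331, chr6:118587240-119196418, minus strand), the main L-type gene of brain and heart muscle, had 64.2, 62.6, 78.1 and 73.9 CPM in libraries labelled Nsun5-KO and 74.0, 71.5, 72.0 and 57.7 CPM in WT libraries. WT replicate 4 stood below the other 3 WT libraries, and the groups overlapped (log2 fold change 0.02, 95% interval -0.20 to 0.23, edgeR adjusted p = 0.966). Upper-quartile scaling turned its sign (-0.0064), as did leaving out WT replicate 4 (-0.061). Cacna1d (ENSMUSG00000015968, chr14:30039939-30491455, minus strand), whose channel opens at less positive voltages than that of Cacna1c and supports pacemaking, had 38.0, 34.2, 46.1 and 36.0 CPM in libraries labelled Nsun5-KO and 35.4, 35.9, 35.7 and 34.4 CPM in WT libraries. Replicate 3 labelled Nsun5-KO was the highest for Cacna1d, while the WT libraries lay between 34.4 and 35.9 CPM, and the log2 fold change was 0.13 (95% interval -0.08 to 0.33, edgeR adjusted p = 0.684). Without replicate 3 labelled Nsun5-KO, Cacna1d was at 0.031. Cacna1d shares 589 exonic bases with Chdh on the opposite strand, which had up to 118 counts, and the library kit does not mark strand.

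Of the T-type genes, Cacna1i (ENSMUSG00000022416, chr15:80287238-80398279, plus strand) had the largest fold change of the family and the widest ratio between libraries, 2.03 between the highest and the lowest. It had 117.7, 127.1, 114.1 and 108.3 CPM in libraries labelled Nsun5-KO, against 62.7, 83.9, 115.3 and 108.9 CPM in WT libraries. WT replicates 1 and 2 were the lowest of the 8, and WT replicates 3 and 4 lay among the libraries labelled Nsun5-KO. The means were 117 ± 7.87 and 92.7 ± 24.2 CPM in libraries labelled Nsun5-KO and in WT, and the log2 fold change was 0.33 (SE 0.17), with a 95% interval of -0.05 to 0.71. The adjusted p from edgeR was 0.539 and that of the exact permutation test, unadjusted, 0.143. Leaving out WT replicates 1 and 2 (chosen after seeing the data) gave a log2 fold change of 0.057. It was 0.18 without WT replicate 1 alone. Those are the libraries that stood apart in all genes and in mitochondrial share, and the part of that in the low Cacna1i values was not tested.

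Cacna1g (ENSMUSG00000020866, chr11:94408391-94474198, minus strand), the T-type gene of thalamic relay neurons, had 66.2, 82.0, 74.9 and 63.3 CPM in libraries labelled Nsun5-KO and 59.1, 53.5, 60.5 and 68.1 CPM in WT libraries. Replicates 2 and 3 labelled Nsun5-KO were above every WT library, and replicates 1 and 4 were below WT replicate 4. The mean was 71.6 ± 8.50 CPM in libraries labelled Nsun5-KO and 60.3 ± 6.01 CPM in WT, a log2 fold change of 0.25 (SE 0.098) whose 95% interval ran from 0.03 to 0.46. By edgeR the adjusted p was 0.429, and by the exact permutation test p was 0.0857. Cacna1g, like Cacna1a, Cacna1b and Cacna1i, stayed above 0 under all 20 alternatives, and its own values ran from 0.15 to 0.31. The edgeR p of Cacna1g before adjustment was 0.0272 with all libraries and 0.109 without replicate 2 labelled Nsun5-KO.

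Cacna1h (ENSMUSG00000024112, chr17:25374285-25433783, minus strand), a T-type gene known from sensory neurons, was at a fold change below 0, with 35.4, 30.3, 45.1 and 45.2 CPM in libraries labelled Nsun5-KO and 38.1, 50.8, 48.2 and 42.8 CPM in WT libraries. Replicates 1 and 2 labelled Nsun5-KO were the lowest of the 8, and the other 2 lay within the WT range (log2 fold change -0.20 with a 95% interval of -0.50 to 0.10; SE 0.14; edgeR adjusted p = 0.651). Its sign was below 0 under all 20 alternatives, from -0.28 to -0.10. The T-type genes had fold changes on both sides of 0. Cacna1h shares 158 exonic bases with Tpsg1, which had at most 3 counts.

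**Figure D2:**
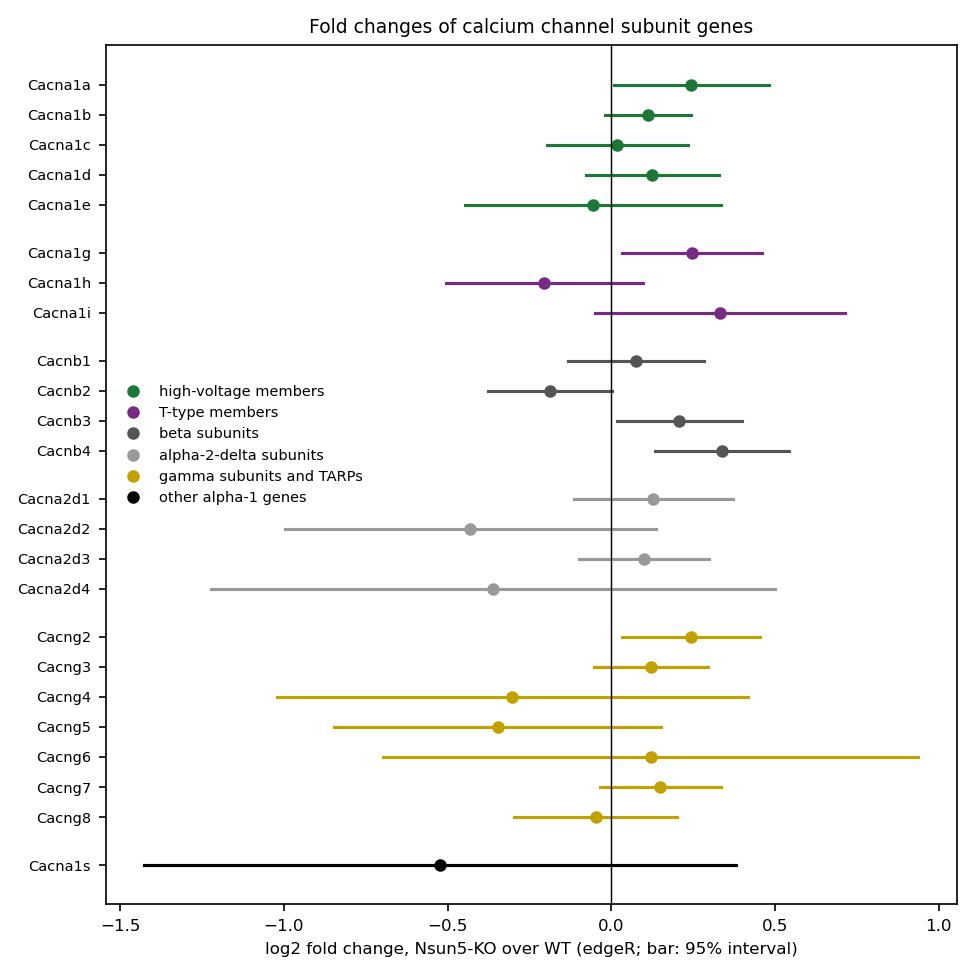
Log2 fold changes (x axis, libraries labelled Nsun5-KO over WT; points) with 95% intervals (bars) from edgeR for the 8 alpha-1 genes and the other tested calcium channel subunit genes, grouped by class. The intervals of Cacna1a, Cacna1g, Cacnb3, Cacnb4 and Cacng2 lie above 0, and no gene passed the adjusted test.

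The medians of both classes lay above 0, with 1 gene below 0 in each. The median log2 fold change was 0.11 over the 5 high-voltage genes (4 above 0, 1 below) and 0.25 over the 3 T-type genes (2 above 0, 1 below), beside a median of -0.0055 over all 16062 tested genes, 48.6% of which were above 0. The difference of the medians, high-voltage minus T-type, was -0.13, and it was 0.059 without WT replicates 1 and 2, which lowered the T-type median to 0.057. The 1519 tested genes at least as long as the shortest member (9763 bases) had a median of 0.019, with 54.5% above 0. Their median log2 CPM deviation from the WT mean ran from -0.031 to 0.10 in libraries labelled Nsun5-KO, highest in replicate 3. In WT libraries it ran from -0.052 to 0.055, and the part of gene length in the class medians was not tested.

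The deposited FPKM, counts scaled by gene length and library size, were also summed per class. The T-type genes summed to 21.9, 24.0, 23.5 and 21.7 FPKM in libraries labelled Nsun5-KO, against 15.9, 18.8, 22.4 and 22.0 FPKM in WT libraries. The high-voltage genes summed to 35.4, 32.1, 38.8 and 35.0 FPKM in libraries labelled Nsun5-KO and to 32.7, 33.0, 35.4 and 29.6 FPKM in WT libraries. The T-type genes made up 38.3%, 42.8%, 37.7% and 38.2% of the total of both classes in the libraries labelled Nsun5-KO and 32.8%, 36.2%, 38.7% and 42.6% in WT libraries. These shares overlapped (39.2% ± 2.37 against 37.6% ± 4.15, SD, n = 4 each), and WT replicate 4 had nearly the share of replicate 2 labelled Nsun5-KO. Sums across genes depend on the lengths used: per kilobase of the longest coding sequence, chosen after seeing the data, the T-type share was 30.2% ± 2.80 in libraries labelled Nsun5-KO and 28.1% ± 4.30 in WT, and the groups again overlapped (28.1% to 34.3% against 23.5% to 33.3%). Within the T-type total, Cacna1h took 12.9% to 21.2% in the libraries labelled Nsun5-KO and 19.8% to 27.4% in WT libraries, and Cacna1i took 49.1% to 54.0% in the libraries labelled Nsun5-KO and 39.5% to 51.7% in WT libraries.

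**Figure D3:**
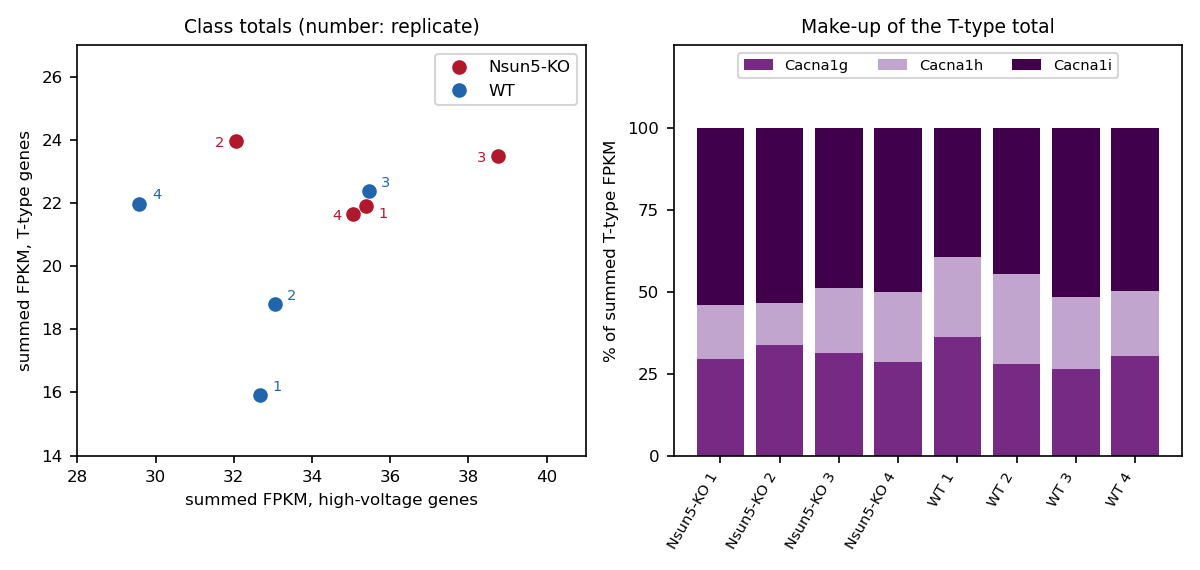
Left, summed FPKM of the 3 T-type genes (y axis) against that of the 5 high-voltage genes (x axis) per library, with axes that start above 0 and the replicate number at each point; right, share of the summed T-type FPKM held by each T-type gene in each library. WT replicates 1 and 2 have the lowest T-type sums (15.9 and 18.8 FPKM) and the smallest shares of Cacna1i (39.5% and 44.8%).

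Per length, Cacna1i, Cacna1a and Cacna1b were the most abundant, at 10.5 ± 2.13, 10.3 ± 1.52 and 9.80 ± 0.518 FPKM over the 8 libraries. Cacna1e followed at 7.72, Cacna1g at 6.46, Cacna1h at 4.27, Cacna1c at 3.24 and Cacna1d at 2.91 FPKM. Cacna1g and Cacna1h were the only neighbours in this order whose ranges did not overlap, and Cacna1i exceeded Cacna1a in 6 of 8 libraries. The order depends on the length used, since the deposited lengths of Cacna1e and Cacna1c (25228 and 21191 bases) are far above their longest coding sequences (6819 and 6666 bases). Per kilobase of coding sequence, Cacna1e was the first of the 8 in place of the fourth and Cacna1c the fifth in place of the seventh. The other alpha-1 genes, Cacna1f of the retina and Cacna1s of skeletal muscle, had 1 to 5 and 5 to 17 counts in a library.

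The genes differed in which libraries were high or low, as the map of deviations shows. In replicate 2 labelled Nsun5-KO, Cacna1g and Cacna1i were the highest of the 8 libraries (0.33 and 0.31 above their own mean on the log2 CPM scale) while Cacna1e, Cacna1h and Cacna1d were the lowest (-0.47 and -0.45 for Cacna1e and Cacna1h). Replicate 3 labelled Nsun5-KO was the highest for 4 genes (Cacna1b, Cacna1c, Cacna1d and Cacna1e). In WT replicate 2, Cacna1a and Cacna1g were the lowest while Cacna1h was the highest.

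**Figure D4:**
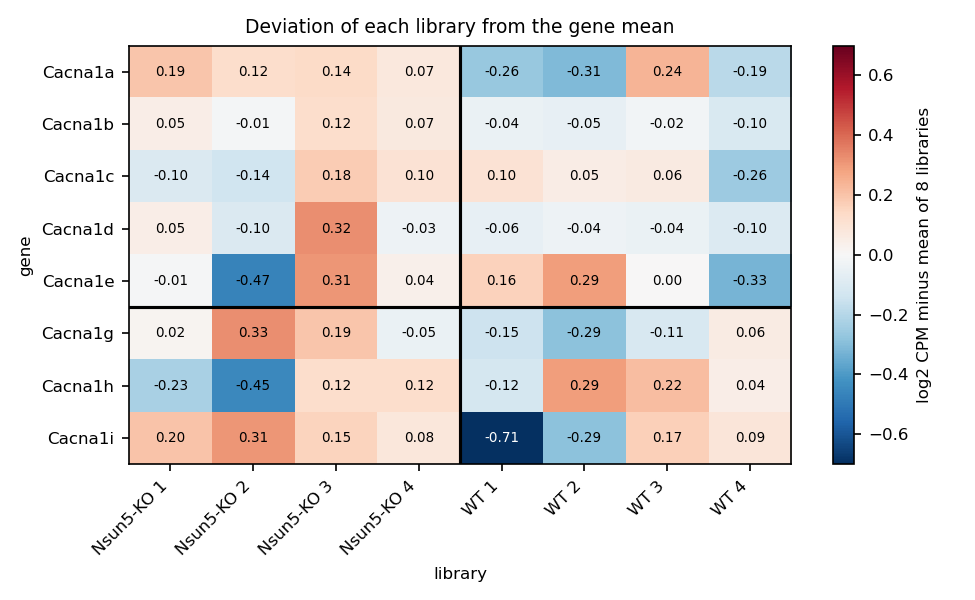
Log2 CPM of each alpha-1 gene (rows) in each library (columns, libraries labelled Nsun5-KO left of the line) minus that gene's mean over the 8 libraries, with the value in each cell. The largest deviation is that of Cacna1i in WT replicate 1 (-0.71), and libraries of a group differ from each other in Cacna1e and Cacna1h.

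Regional marker genes differed between the same libraries. The thalamic list (11 of 12 tested, none at 0 counts in any library) scored -0.76, 0.42, -0.46 and -0.21 in replicates 1 to 4 labelled Nsun5-KO and -0.13, -0.01, 0.20 and -0.06 in WT replicates 1 to 4, as the mean log2 CPM over members minus that of WT. Its summed FPKM was 57.1 to 118.3 in the libraries labelled Nsun5-KO and 90.7 to 99.8 in WT, with 4 genes above 0, 7 below and a median of -0.045. Replicate 2 labelled Nsun5-KO was the highest of all 8 libraries in the thalamic list, in Cacna1g and in Cacna1i. Replicate 3, second highest for Cacna1g, and replicate 1, second highest for Cacna1i, had the lowest thalamic scores. A link between the thalamic scores and these genes was not tested. Cortical and hippocampal genes had a median log2 fold change of 0.38, with 11 of 12 above 0 and summed FPKM of 647.5 to 848.5 in the libraries labelled Nsun5-KO and 535.0 to 732.0 in WT. Striatal genes, all 12 below 0 with a median of -0.39, summed to 198.0 to 726.2 FPKM in libraries labelled Nsun5-KO and 155.6 to 761.2 FPKM in WT, the lowest being WT replicate 1. Hypothalamic genes (9 of 15 tested, with Oxt, Pmch, Hcrt, Sim1 and Nr5a1 at 0 counts in at least 1 library) had a median of -1.92. They summed to 8.24 to 21.6 FPKM in libraries labelled Nsun5-KO and 14.04 to 183 FPKM in WT. These sums overlapped, while the scores of the tested genes did not (-2.27 to -1.62 in libraries labelled Nsun5-KO, -1.30 to 0.69 in WT). General neuronal genes had a median of 0.12, with 10 of 12 above 0 and sums of 1681 to 1726 FPKM in libraries labelled Nsun5-KO against 1517 to 1585 FPKM in WT, groups that did not overlap. Myelin genes, all 10 below 0 with a median of -0.42, summed to 776 to 1074 FPKM in libraries labelled Nsun5-KO and 1194 to 1297 FPKM in WT. Ependymal and choroid plexus genes were all 10 below 0 as well (median -0.998). Their sums overlapped, at 38.7 to 914 FPKM in libraries labelled Nsun5-KO and 242 to 888 FPKM in WT, the highest being replicate 1 labelled Nsun5-KO. Cerebellar genes had 1 of 7 tested above 0 (median -0.37) and olfactory bulb genes 1 of 3 (median -0.96). Astrocyte, microglial and endothelial genes had medians of -0.0029, -0.057 and -0.080. The edgeR test called no gene of these lists, beside 0% of all genes. DESeq2 called 1 of 12 neuronal, 3 of 12 cortical and 6 of 15 hypothalamic genes (2 of them, Gal and Otp, outside the edgeR filter). It also called 2 of 10 myelin and 2 of 10 ependymal genes, beside 0.585% of all genes. The lists were written with earlier results of these data known, and their part in the alpha-1 values was not tested.

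The other channel subunits, the accessory ones with Cacna1f and Cacna1s, gave no called gene either: edgeR and DESeq2 called 0 of the 16 tested (18 listed). By an edgeR p under 0.05 before adjustment 3 were higher and 0 lower, beside 5.3% and 5.05% of all tested genes. Of the 16, 9 were above 0 and 7 below, with a median log2 fold change of 0.088. The 7 include the alpha-1 gene Cacna1s (-0.52), which had only 5 to 17 counts in a library. Cacnb4, a beta subunit paired with P/Q-type channels and mutated in the lethargic mouse, had 310.8, 292.1, 278.1 and 267.9 CPM in libraries labelled Nsun5-KO, against 190.4, 218.2, 262.1 and 238.1 CPM in WT libraries. Cacnb4 was the only one of the 16 whose groups did not overlap, beside 5.7% of all tested genes (2.99% higher and 2.71% lower). WT replicates 1 and 2 were again the lowest, and the log2 fold change of Cacnb4 was 0.34 (SE 0.094, edgeR adjusted p = 0.316, DESeq2 adjusted p = 0.0937). Among the other beta subunits, which bring high-voltage channels to the membrane, Cacnb3 was at 0.21, Cacnb1 at 0.08 and Cacnb2 at -0.19. Of the alpha-2-delta subunits, of which Cacna2d1 and Cacna2d2 bind gabapentin, Cacna2d1 was at 0.13, Cacna2d2 at -0.43, Cacna2d3 at 0.10 and Cacna2d4 at -0.36, with intervals that all include 0.

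The gamma family holds few subunits of calcium channels in the brain, since Cacng2, Cacng3, Cacng4 and Cacng8 encode TARPs, which carry AMPA receptors to the synapse, and Cacng5 and Cacng7 are related to them. Cacng2, the gene disrupted in the stargazer mouse, had a log2 fold change of 0.24 (75.8 ± 6.24 CPM in libraries labelled Nsun5-KO and 64.0 ± 8.24 CPM in WT; SE 0.097, edgeR adjusted p = 0.430). Cacng7 was at 0.15, Cacng3 at 0.12, Cacng6 at 0.12, Cacng8 at -0.05, Cacng4 at -0.30 and Cacng5 at -0.35. Cacng1, a subunit of skeletal muscle, had 0 to 23 counts and was not tested.

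Of 24 binding partners and calcium-gated channels, all tested, edgeR called 0 and DESeq2 called 1, beside 0% and 0.585% of all genes. By an edgeR p under 0.05 before adjustment 7 were higher and 1 lower, beside 5.3% and 5.05% of all tested genes, and the median log2 fold change was 0.14. The gene DESeq2 called was Snap25, a SNARE protein of vesicle fusion that binds presynaptic calcium channels, at 3002 ± 188 CPM in libraries labelled Nsun5-KO and 2326 ± 132 CPM in WT (log2 fold change 0.37, SE 0.071, edgeR adjusted p = 0.196; DESeq2 adjusted p = 8.0e-04). Stx1a, its syntaxin partner, was at 0.48 (edgeR adjusted p = 0.385), and Syt1, the calcium sensor of release, at 0.19 (0.412). Snap25 and Syt1 also belong to the neuronal list and are part of its sums, which did not overlap between the groups. Snap25 alone had a mean of 439 FPKM in libraries labelled Nsun5-KO and 339 FPKM in WT. The sums of the partner list did not overlap either (4110 to 4484 FPKM in libraries labelled Nsun5-KO, 3637 to 4100 FPKM in WT). Nor did the sums of the myelin and cerebellar lists, which were lower in libraries labelled Nsun5-KO. As scores (mean log2 CPM minus that of WT) the partner list did overlap, at 0.07 to 0.15 in libraries labelled Nsun5-KO and -0.14 to 0.10 in WT. So did the cerebellar list, at -0.52 to -0.16 in libraries labelled Nsun5-KO and -0.27 to 0.57 in WT.

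Genes whose levels followed those of the alpha-1 genes most closely were sought among 11794 genes with a mean of at least 5 CPM, by Pearson correlation of log2 CPM over the 8 libraries, as a description of these libraries only. Cacna1a was nearest to Chgb, which encodes chromogranin B of secretory granules (correlation 0.975, Spearman's rho 0.929), and to Slc24a2, a sodium, calcium and potassium exchanger (0.972). Cacna1g was nearest to the ephrin receptor gene Ephb2 (0.973, rho 0.952), Cacna1h to Spag6l, a gene of motile cilia (0.969, rho 0.929), and Cacna1i to Scn2b, a sodium channel beta subunit (0.993, rho 0.881). Extl3 for Cacna1a, Wee1 and Vps4a for Cacna1g, Spata5 and Anapc1 for Cacna1h, and Polg and Incenp for Cacna1i came next, all between 0.944 and 0.976. WT replicates 1 and 2 hold the lowest values of Cacna1i among these 8 points, and the likeness was not recomputed without them.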

How the data were processed

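Bulk RNA-seq libraries of mouse brain were analysed, 4 labelled Nsun5-KO and 4 WT. Per the labels, RNA was extracted with TRIzol and made into libraries with a NEBNext Ultra kit, which does not mark strand. Per the submitters' processing notes, alignment was with HISAT2 2.0.5 against mm10, and no source used here names the read counter. Raw whole-number counts per gene, with gene lengths, were deposited. The FPKM values the authors deposited equal those counts over the deposited gene length and a constant per library, 0.981 to 1.02 times the library total.

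Counts were filtered (filterByExpr), scaled (TMM) and tested with edgeR 4.0.16 in R 4.3.3 (robust quasi-likelihood F test, Benjamini-Hochberg over 16062 genes, called at an adjusted p below 0.05). CPM uses the TMM library sizes. Single genes were also tested by exact two-sided permutation of log2 CPM over 70 labelings. Alternatives were DESeq2 1.42.0, limma 3.58.1 (voom, and log2(FPKM + 1) or log2(FPKM + 0.1)), other scalings (RLE, upper quartile) and filters, protein-coding genes alone, the replicate number as a block, and libraries left out. The edgeR step was tested on simulated counts, and how often it called changes as small as those of the alpha-1 genes is not reported here. Libraries of a group differed beyond sampling noise (chi-square per degree of freedom 7.77 to 22.3); nothing states that each is a separate mouse, so p-values measure the spread between libraries. Members, gene lists and tests were chosen with earlier results of these data known. Named genes are the members, the other channel subunits, the 3 partners with the smallest p, and the 3 nearest genes by correlation for Cacna1a and the T-type genes; Gabra6, Pcp2, Gal and Otp were named after their values were seen.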

Additional observations from a re-analysis of the deposited data

Results flagged for a closer look

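Of 22 groups of 4 values checked, 2 held a library far from the other 3 (gap to the nearest library over the range of the group above Dixon's 95% critical value); chance flags about 1 in 20 groups. Cacna1c in WT was flagged (0.846) for WT replicate 4, at 57.7 CPM against 71.5 to 74.0 CPM in the other WT libraries. The T-type share of summed FPKM in the libraries labelled Nsun5-KO was flagged (0.898) for replicate 2, at 42.8% against 37.7% to 38.3% in the other 3. The share is computed from the alpha-1 genes themselves, so their values in that library are not a separate observation. That library was the highest of the 8 for Cacna1g and Cacna1i and the lowest for Cacna1d and Cacna1e. It was also the lowest for the T-type gene Cacna1h.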

How the results depend on the processing

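Neither the 8 alpha-1 genes nor the other channel subunits gave a call under any of the 20 alternatives. Over all genes edgeR called 0, DESeq2 94, edgeR without the low-count filter 68, and edgeR with single libraries left out 0 to 2. With single libraries left out, the high-voltage median ran from 0.031 to 0.13, the T-type median from 0.17 to 0.31 and their difference from -0.21 to -0.040. Without WT replicates 1 and 2, chosen after seeing the data, the T-type median was 0.057 and the difference 0.059; without replicates 1 and 3 labelled Nsun5-KO the high-voltage median was -0.011. Signs turned for Cacna1c with upper-quartile scaling (-0.0064), without replicate 3 (-0.039) or 4 (-0.012) labelled Nsun5-KO, without its replicates 1 and 3 (-0.012) and without WT replicate 4 (-0.061); for Cacna1d without replicates 1 and 3 labelled Nsun5-KO (-0.011); and for Cacna1e without replicate 2 labelled Nsun5-KO (0.067), WT replicate 2 (0.03) or WT replicates 1 and 2 (0.14). The causes were not tested. With single libraries left out, Cacna1c ran from -0.061 to 0.063 and Cacna1e from -0.18 to 0.067. Same-numbered libraries showed no shared deviation (correlations -0.21 to 0.063, beside -0.17 to 0.18 for other pairs). With so few libraries this check cannot exclude a batch shared by number. With the replicate block edgeR called 0 genes, and the high-voltage and T-type medians were 0.11 and 0.24, their difference -0.13. The lowest count of an alpha-1 gene in a library was 513. With coding length in place of deposited length, the T-type share was 30.2% in libraries labelled Nsun5-KO and 28.1% in WT, against 39.2% and 37.6% with deposited lengths.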
